A study of Homo sapiens with 12 samples.

Results

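The heat shock chaperone genes were taken as 10 rows of the spike-in-normalised expression table, matched by gene ID: HSPA1A, HSPA1B, HSPA8, DNAJB1, HSP90AA1, HSP90AB1, HSPH1, HSPB1, HSPD1 and BAG3, out of 22379 genes. The rule named the genes and used no measured value, though the genes were chosen with earlier results of these data known. Each of the 10 matched 1 row and passed the filter on low values (an untreated mean of 10 or more). From textbook knowledge, 7 were counted as stress-inducible (HSPA1A, HSPA1B, DNAJB1, HSP90AA1, HSPH1, HSPB1 and BAG3) and 3 as constitutive (HSPA8, HSP90AB1 and HSPD1).

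The libraries came from U2OS cells, a human osteosarcoma line, made by transient transfection of a Cas9 plasmid with puromycin resistance and 1 guide, which was nontargeting (NONT) or aimed at EXOSC5, part of the RNA exosome, or at NUP93, part of the nuclear pore. The knockouts were pools rather than clones, so NUP93-KO and EXOSC5-KO cells may be mixtures of edited and unedited cells. The NONT cells carried Cas9 and a guide as well. Each of the 3 genotypes was given either no triptolide (labelled DMSO and untreated) or 1 µM triptolide, an inhibitor of the XPB helicase of TFIIH that stops initiation by RNA polymerase II, for 8 h, with 2 replicates in each of 6 groups. Values are gene-level read estimates divided by factors estimated on ERCC spike-in RNAs that had been added per cell, a scale that follows mRNA per cell. On such bulk values, fewer cells and less RNA per cell would be separated only as far as the cell count was right.

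Chaperones bind unfolded or partly folded proteins and help them to fold, to assemble or to be degraded. HSP70 proteins work in a cycle in which a J-domain protein delivers the client and stimulates ATP hydrolysis, and a nucleotide exchange factor then releases it, while HSP90 takes over late-folding clients such as kinases and steroid receptors. Heat, proteotoxic drugs and other stresses activate heat shock factor 1 (HSF1), which binds heat shock elements made of inverted GAA repeats and raises transcription of the inducible genes, whereas the constitutive genes are transcribed at a high level in unstressed cells.

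Approximate depth was 8598000 to 11960000 reads per library, and the sum of all gene values per library ran from 4897900 to 16445800. The osteosarcoma label was checked on markers, over treated and untreated libraries together. VIM ranged from 24275 to 66974, COL1A1 from 15197 to 57588, SPARC from 7368 to 19756 and RUNX2 from 9.56 to 403.5, while COL1A2 stayed at 42.0 or less. The T cell gene CD3E was listed at 0 in every library, and the leukocyte gene PTPRC reached at most 4.70 and the endothelial gene PECAM1 9.99. Of the epithelial genes, EPCAM reached at most 47.6, CDH1 69.7 and the keratin gene KRT18 13637. Untreated NUP93-KO cells had NUP93 values of 1395 and 1432 where NONT cells had 1753 and 2489, and untreated EXOSC5-KO cells had EXOSC5 values of 215.9 and 148 where NONT cells had 299 and 481. The untreated NONT replicates stood apart in scale, with gene sums of 11320500 and 16445800, and 9 of the 10 chaperone genes, all but HSPA1B, were higher in replicate 2. Nothing in the labels says that replicates were separate cultures, so p-values measure the spread between these libraries.

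Pairs of inverted GAA units were looked for in the promoters of these genes. RefSeq windows (GRCh38.p14) of 250 bases upstream of an annotated start were searched for GAANNTTC and TTCNNGAA, which are each their own reverse complement and can overlap each other by 3 bases; 1 or both stood in 11.6% of the 35116 windows of all genes. All 10 genes were found there, with 16 windows between them, and 8 of these windows had a match. Counted by gene, 8 had a window with a match, the exceptions being BAG3 and HSPH1. The share of all genes counted in that way was not computed. Constitutive HSPA8, HSP90AB1 and HSPD1 had matches, as did the inducible genes other than BAG3 and HSPH1. A match is a description of letters and not a bound site. The 5 windows below belong to the genes whose values the results turn on, written 5′ to 3′ up to the base before the start, with matches in capitals.
HSPA1A, chr6:31815293-31815542, plus strand: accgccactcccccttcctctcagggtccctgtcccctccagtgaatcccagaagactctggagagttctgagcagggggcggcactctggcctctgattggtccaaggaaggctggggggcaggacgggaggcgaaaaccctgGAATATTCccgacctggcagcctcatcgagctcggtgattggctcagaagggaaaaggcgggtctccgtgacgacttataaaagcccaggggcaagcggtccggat
HSPA1B, chr6:31827488-31827737, plus strand: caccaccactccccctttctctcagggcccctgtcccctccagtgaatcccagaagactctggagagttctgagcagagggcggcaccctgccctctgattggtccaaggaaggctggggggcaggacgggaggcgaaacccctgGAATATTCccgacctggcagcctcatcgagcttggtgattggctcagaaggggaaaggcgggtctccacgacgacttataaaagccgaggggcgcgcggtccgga
HSPA8, chr11:123062137-123062386, minus strand: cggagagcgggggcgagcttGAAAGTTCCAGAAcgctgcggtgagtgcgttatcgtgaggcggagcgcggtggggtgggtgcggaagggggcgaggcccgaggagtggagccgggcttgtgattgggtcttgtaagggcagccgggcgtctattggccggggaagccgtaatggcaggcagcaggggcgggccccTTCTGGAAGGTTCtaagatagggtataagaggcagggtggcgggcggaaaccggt
DNAJB1, chr19:14518398-14518647, minus strand: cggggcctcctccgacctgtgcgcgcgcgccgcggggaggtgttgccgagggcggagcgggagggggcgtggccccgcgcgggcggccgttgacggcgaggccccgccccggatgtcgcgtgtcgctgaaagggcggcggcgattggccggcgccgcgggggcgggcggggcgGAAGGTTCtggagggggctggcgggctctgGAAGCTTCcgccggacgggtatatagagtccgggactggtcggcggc
HSP90AA1, chr14:102087045-102087294, minus strand: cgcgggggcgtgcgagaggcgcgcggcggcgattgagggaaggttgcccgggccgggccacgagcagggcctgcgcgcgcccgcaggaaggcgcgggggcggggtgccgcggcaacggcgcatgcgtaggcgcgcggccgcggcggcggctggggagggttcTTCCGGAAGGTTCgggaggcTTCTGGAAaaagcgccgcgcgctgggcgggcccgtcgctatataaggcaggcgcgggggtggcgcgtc
HSPA1A and HSPA1B each held 1 GAANNTTC, beginning 106 and 105 bases before the start. DNAJB1 held 2, at 77 and 47 bases before the start of 1 of its 3 annotated windows, and HSP90AA1 had 3 overlapping or adjacent matches between 88 and 68 bases before the start. HSPA8 had 2 such clusters, beginning 230 and 55 bases before the start.

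Without drug the constitutive HSP90AB1 and HSPA8 were the most abundant per length. Mean values per kilobase of canonical transcript in NONT were 28695 for HSP90AB1 and 19906 for HSPA8, followed by 12698 for HSPB1, 6624 for HSPD1 and 6037 for HSP90AA1. Inducible DNAJB1 had 1421, HSPH1 831, HSPA1A 741, BAG3 490 and HSPA1B 26.0 per kilobase. The replicate ranges of HSP90AB1 and HSPA8 overlapped, as did those of HSPD1 and HSP90AA1, of HSPH1 and HSPA1A, and of HSPA1A and BAG3; the other neighbours in the order did not overlap. After triptolide in NONT, HSPA8 went from rank 2 to rank 5 in this order, at 2044 per kilobase, below HSPB1, HSP90AA1 and HSPD1. The 10 genes together made up 1.03% to 1.35% of all gene values in every library.

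**Figure D1:**
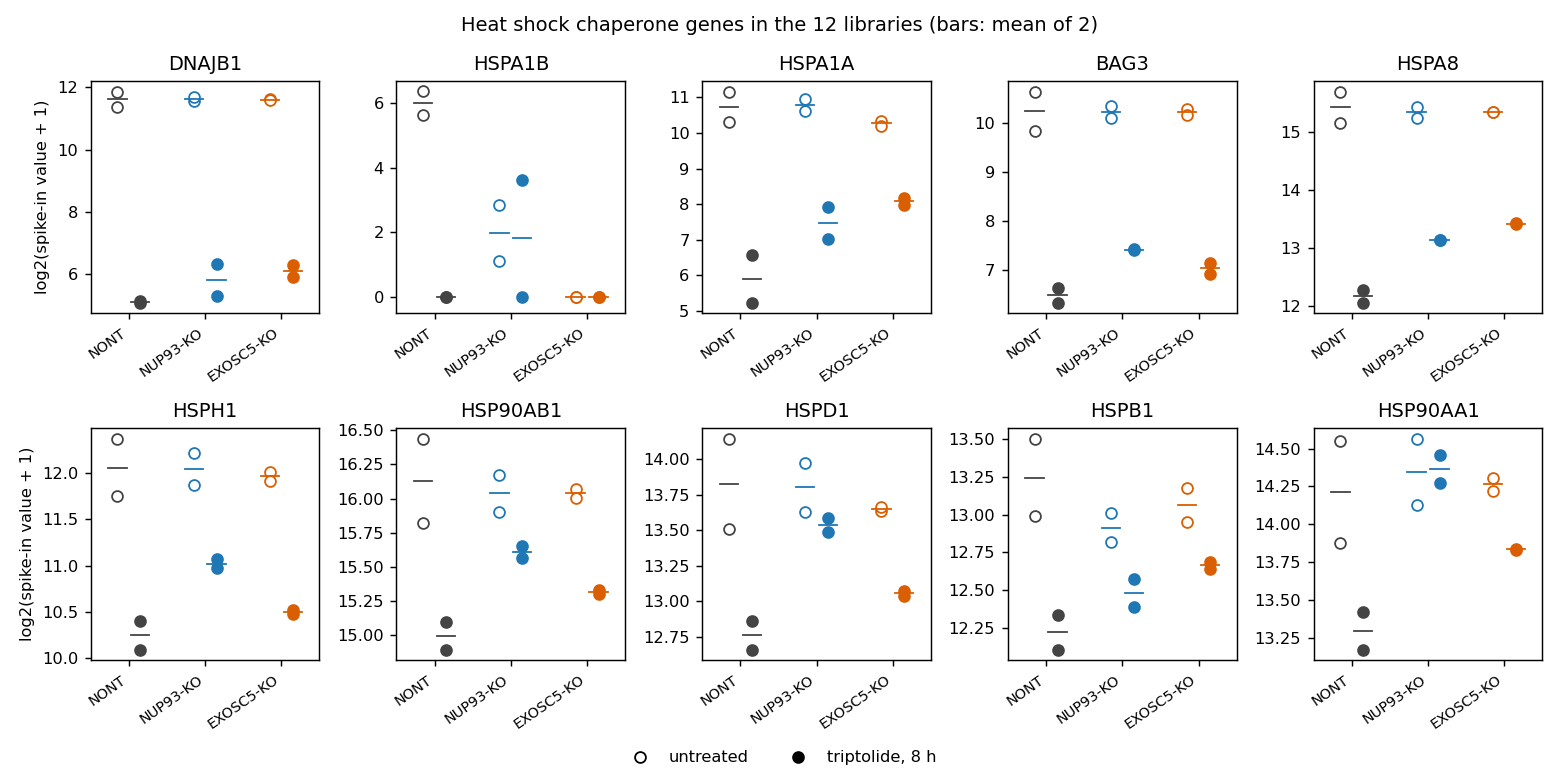
Values of each heat shock chaperone gene in every library, as log2(spike-in value + 1), with untreated libraries open, triptolide libraries filled and a bar at the mean of 2; each panel has its own vertical axis. HSPA1B aside, DNAJB1, HSPA1A, BAG3 and HSPA8 drop furthest in all 3 genotypes, HSP90AA1 overlaps between treatments in NUP93-KO, and HSPA1B falls to 0 in NONT and lies at 0 in all 4 EXOSC5-KO libraries.

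All 10 genes fell after triptolide in NONT (limma, adjusted p under 0.05), but the size of the fall differed, from 51.8% of the untreated mean left for HSP90AA1 to 1.06% left for DNAJB1 and HSPA1B listed at 0. HSPA1B passed the filter through untreated NONT alone (its untreated mean was 65.5 there, 3.70 in NUP93-KO and 0 in EXOSC5-KO), so its calls against that group support nothing. The 90.0% of all 13811 tested genes that fell in the same contrast leave little to read from the count of 10. In NUP93-KO 5 of the 10 fell, DNAJB1, HSPA1A, BAG3, HSPA8 and HSPH1, against 55.1% of all tested genes, and in EXOSC5-KO 7 fell, the same 5 with HSP90AB1 and HSPD1, against 64.3%. No chaperone gene rose in any genotype on this scale. Both treated values lay below both untreated values for 10 genes in NONT, 9 in EXOSC5-KO and 8 in NUP93-KO, beside 94.8%, 88.0% and 79.1% of all tested genes. In EXOSC5-KO, whether HSP90AB1, HSPD1, HSP90AA1 and HSPB1 were called depended on which library was left out. Their log2 fold changes then ran from −0.76 to −0.69, −0.61 to −0.58, −0.47 to −0.38 and −0.51 to −0.28.

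HSPA1A, the main inducible HSP70, had values of 1268 and 2291 in untreated NONT cells, 1564 and 1988 in untreated NUP93-KO cells and 1294 and 1175 in untreated EXOSC5-KO cells. After triptolide HSPA1A measured 93.9 and 36.7 (NONT), 128 and 239 (NUP93-KO), and 253 and 287 (EXOSC5-KO). The treated libraries were below all untreated ones in each genotype, and the 4 knockout values were all above both NONT values under the drug. The log2 fold change was −4.83 ± 0.37 (SE, adjusted p = 7.2e-09) in NONT cells, −3.32 ± 0.37 (1.2e-06) in NUP93-KO cells and −2.19 ± 0.37 (8.5e-05) in EXOSC5-KO cells, where 21.9% of the untreated mean was left.

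HSPA1B, a neighbouring gene that encodes a near-identical protein to HSPA1A, had 81.7 and 49.2 in untreated NONT and was listed at 0 in both treated NONT libraries. In NUP93-KO its values were 1.16 and 6.25 without drug and 11.4 and 0 with it, and in EXOSC5-KO it was listed at 0 in all 4 libraries. No fold change is given against values at 0. Of the 31-base words of HSPA1A transcripts in GENCODE release 44, 76.0% also occur in HSPA1B, and 73.3% of those of HSPA1B occur in HSPA1A, so the pseudoaligner had to divide most of their reads and the split between these rows is uncertain. The untreated NONT values amount to about 86.0 and 28.0 reads. Both genes lie in the MHC region of chromosome 6 (HSPA1A 31815543-31817946, HSPA1B 31827738-31830254, plus strand, 1 exon each, GRCh38), and 2795 gene rows of the table had no match in the annotation used here, so reads of these genes assigned to such a row would not be counted; this was not tested. Summed into 1 row, HSPA1A and HSPA1B changed by −4.89 ± 0.36 (NONT), −3.27 ± 0.36 (NUP93-KO) and −2.19 ± 0.36 (EXOSC5-KO).

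HSPA8 encodes HSC70, the constitutive HSP70 that serves general folding, clathrin uncoating and chaperone-mediated autophagy. Its values were 36664 and 53468 in untreated NONT cells, 39028 and 44665 in untreated NUP93-KO cells and 41740 and 41674 in untreated EXOSC5-KO cells. With triptolide they were 4982 and 4273 (NONT), 9085 and 9035 (NUP93-KO), and 10888 and 11061 (EXOSC5-KO). The treated NONT libraries were lowest and the EXOSC5-KO libraries highest, with no overlap between genotypes under the drug. The log2 fold change of HSPA8 was −3.26 ± 0.21 (SE, adjusted p = 9.5e-10) in NONT cells, −2.20 ± 0.21 (1.9e-07) in NUP93-KO cells and −1.93 ± 0.21 (7.1e-07) in EXOSC5-KO cells, and 10.3%, 21.7% and 26.3% of the untreated mean were left. Of the 3 constitutive genes it was the only one below the median gene in any genotype, at the 16.5th percentile of all tested genes in NONT, where the median gene changed by −1.62. Its transcripts share 21.4% of their 31-base words with other genes in GENCODE, up to 7.31% with the pseudogene HSPA8P1, and none with another protein-coding transcript.

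DNAJB1 encodes HSP40, the J-domain partner of HSP70 that also helps to switch HSF1 off. DNAJB1 had 2648 and 3726 in untreated NONT cells, 3012 and 3283 in untreated NUP93-KO cells and 3142 and 3088 in untreated EXOSC5-KO cells. Treated values were 32.8 and 34.4 (NONT), 78.4 and 38.4 (NUP93-KO), and 77.4 and 59.1 (EXOSC5-KO), which correspond to only about 38.5 to 89.6 reads. This was the deepest loss among the 10 genes, HSPA1B aside: the log2 fold change was −6.50 ± 0.28 in NONT (adjusted p = 3.5e-11), −5.81 ± 0.28 in NUP93-KO (6.3e-10) and −5.50 ± 0.28 in EXOSC5-KO (6.1e-10). DNAJB1 lay at the 1.01st, 0.55th and 1.20th percentile of all tested genes in these 3 contrasts.

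BAG3 encodes a nucleotide exchange factor that links HSP70 to selective autophagy. BAG3 had 917 and 1592 in untreated NONT cells, 1099 and 1304 in untreated NUP93-KO cells and 1236 and 1145 in untreated EXOSC5-KO cells, and after triptolide 98.8 and 79.8, 168 and 171, and 120 and 140 in the same order. BAG3 thus kept 7.12%, 14.1% and 10.9% of the untreated mean, at log2 fold changes of −3.75 ± 0.25, −2.81 ± 0.25 and −3.19 ± 0.25 (SE; adjusted p = 1.6e-09, 1.1e-07 and 2.5e-08). HSPH1, the HSP110 exchange factor for HSP70, had 3430 and 5282 without drug in NONT and 1356 and 1091 with it. HSPH1 went from 3745 and 4755 to 2005 and 2148 (NUP93-KO), and from 4113 and 3856 to 1427 and 1467 (EXOSC5-KO). It kept 28.1%, 48.9% and 36.3%, near the median gene in each genotype, at log2 fold changes of −1.81 ± 0.21, −1.02 ± 0.21 and −1.46 ± 0.21 (adjusted p = 8.4e-07, 0.00056 and 1.6e-05).

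The cytosolic HSP90 genes were among the 4 that fell least in NONT. HSP90AA1, the stress-inducible isoform, had 15029 and 23949 in untreated NONT and 10963 and 9244 with triptolide. In NUP93-KO it measured 17885 and 24232 without drug and 19776 and 22445 with it, so the treated values lay inside the untreated range and 100.2% of the mean was left. In EXOSC5-KO it measured 20269 and 19081, then 14639 and 14596. Its log2 fold change passed the threshold in NONT (−0.91 ± 0.23, adjusted p = 0.0016) but not in NUP93-KO (0.02 ± 0.23, 0.96) or EXOSC5-KO (−0.43 ± 0.23, 0.11), and it lay at the 84.5th, 92.8th and 81.1st percentile of all genes. HSP90AB1, the constitutive isoform, had 57829 and 88803 in untreated NONT and 35094 and 30478 with the drug. In EXOSC5-KO it went from 68963 and 65894 to 41290 and 40377, while the NUP93-KO values were 61337 and 73894, then 48448 and 51450. Its log2 fold changes were −1.13 ± 0.24 (NONT, adjusted p = 0.00035), −0.43 ± 0.24 (NUP93-KO, 0.14) and −0.72 ± 0.24 (EXOSC5-KO, 0.015). Of their 31-base words, 26.4% (HSP90AA1) and 35.7% (HSP90AB1) recur in other GENCODE genes, mostly pseudogenes.

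HSPB1 encodes the small heat shock protein HSP27, an ATP-independent holdase. HSPB1 had 8121 and 11612 in untreated NONT and 5161 and 4401 with triptolide, a log2 fold change of −1.03 ± 0.20 (adjusted p = 0.00019). It changed by −0.43 ± 0.20 (0.079) in NUP93-KO, from 7205 and 8249 to 5348 and 6092, and by −0.40 ± 0.20 (0.091) in EXOSC5-KO, from 9255 and 7906 to 6594 and 6390. The knockout changes did not pass the threshold although treated and untreated values did not overlap. HSPD1, the constitutive mitochondrial chaperonin HSP60, had 11658 and 18083 in untreated NONT and 7435 and 6468 with triptolide (−1.07 ± 0.22, adjusted p = 0.00024). NUP93-KO cells went from 12680 and 16087 to 11484 and 12310 (−0.26 ± 0.22, 0.32), and EXOSC5-KO cells from 12743 and 12994 to 8617 and 8412 (−0.60 ± 0.22, 0.023).

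**Figure D2:**
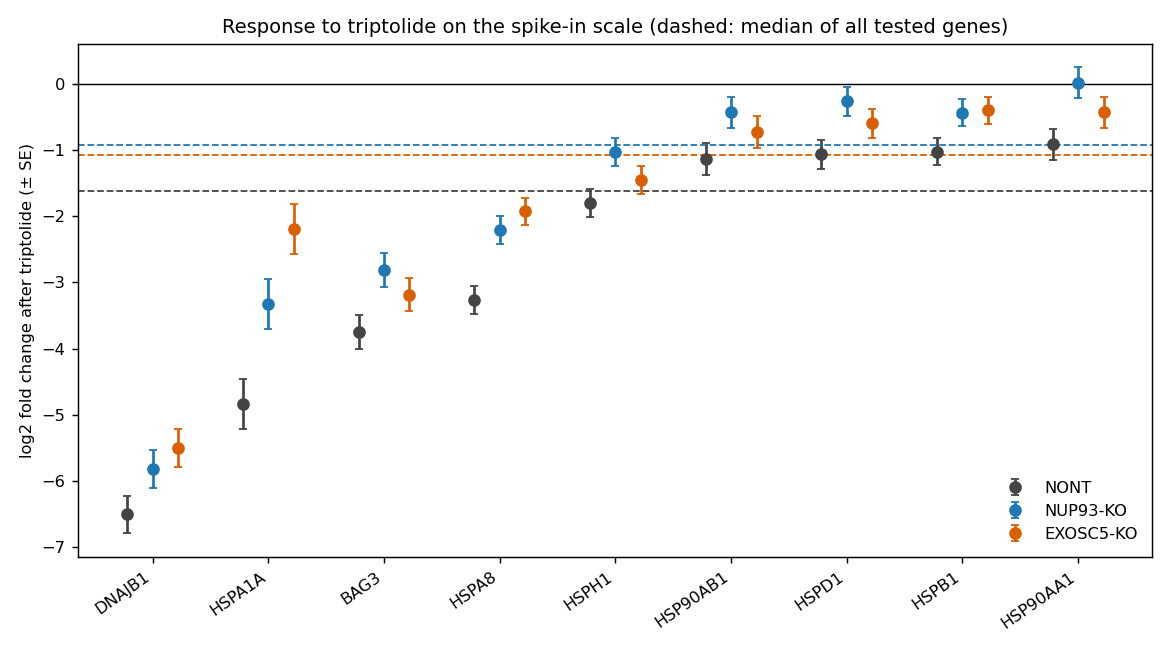
Log2 fold change after triptolide (± SE) of 9 chaperone genes in NONT, NUP93-KO and EXOSC5-KO on the spike-in scale, ordered by the change in NONT, with a dashed line at the median of all tested genes in each genotype; HSPA1B, listed at 0 in several groups, is left out. DNAJB1, HSPA1A, BAG3 and HSPA8 lie below the dashed lines in every genotype and HSP90AB1, HSPD1, HSPB1 and HSP90AA1 above them.

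The order of loss crossed the division into inducible and constitutive genes. The median log2 fold change over the inducible genes minus that over the constitutive genes was −2.62 (NONT), −0.59 (NUP93-KO) and −0.74 (EXOSC5-KO), and without HSPA1B it was −1.65, −1.49 and −1.10. Leaving out NUP93-KO triptolide replicate 1, in which HSPA1B had its treated value, moved the NUP93-KO figure to −1.60. These medians are descriptions with no test. Within each class the genes spread over much of the range: inducible HSP90AA1 and HSPB1 kept 51.8% and 48.5% in NONT and constitutive HSPA8 kept 10.3%. Over all 10 genes the median log2 fold change was −2.53 (NONT), −0.73 (NUP93-KO) and −1.09 (EXOSC5-KO) (−1.81, −1.02 and −1.46 without HSPA1B), beside −1.62, −0.92 and −1.08 over all tested genes.

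Whether falls and rises are called depends on the scale, since the spike-in scale carries the loss of total mRNA. With libraries rescaled to an equal total, the median gene changed by −0.32 in NONT, and HSP90AA1 (0.43 ± 0.08), HSPB1 (0.31 ± 0.05), HSPD1 (0.27 ± 0.07) and HSP90AB1 (0.21 ± 0.05) were higher after triptolide in NONT (adjusted p = 0.0012, 0.00056, 0.0062 and 0.0030), while the other 6, HSPA1B among them, were lower, beside 15.2% of all tested genes higher and 38.2% lower. DNAJB1 (−5.18 ± 0.29), HSPA1A (−3.51 ± 0.32), BAG3 (−2.42 ± 0.12), HSPA8 (−1.92 ± 0.05) and HSPH1 (−0.47 ± 0.07) fell on this scale too. The direction of the HSP90 genes, HSPB1 and HSPD1 is thus a fall per cell and a gain in share of mRNA in NONT. In NUP93-KO 3 were higher and 5 lower on this scale (beside 13.9% and 39.3% of all tested genes), with HSP90AA1 at 0.59 ± 0.08 (adjusted p = 0.00014), and in EXOSC5-KO 3 were higher and 5 lower (beside 14.7% and 36.8%). By the median of ratios, 4 were higher and 5 lower in NONT (beside 26.8% and 30.5%), 4 and 4 in NUP93-KO (26.2% and 30.0%), and 4 and 5 in EXOSC5-KO (25.8% and 28.9%).

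**Figure D3:**
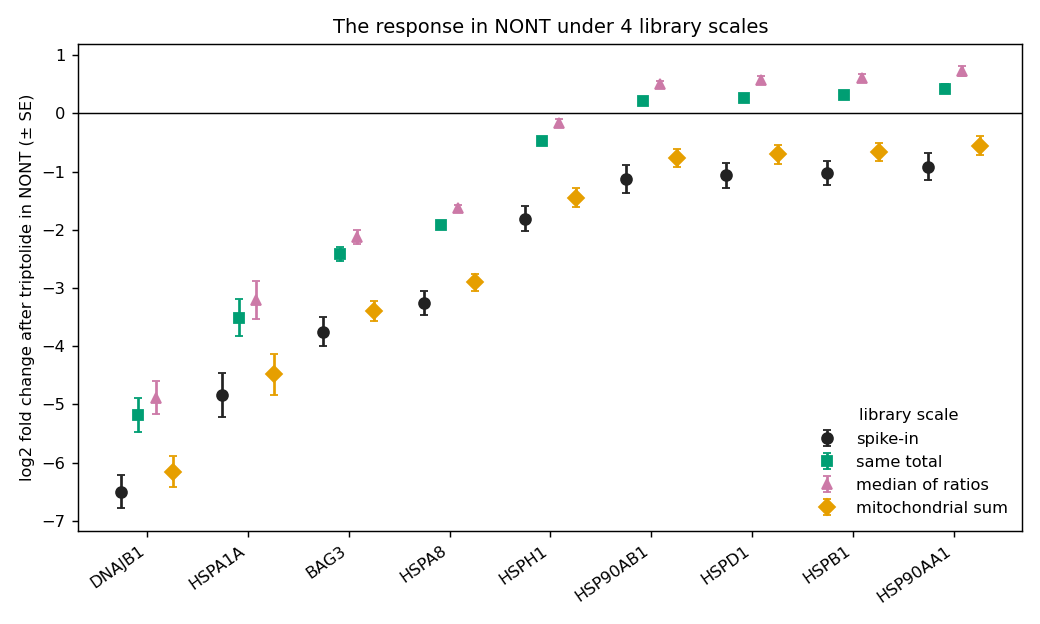
Log2 fold change after triptolide in NONT (± SE) of 9 chaperone genes with libraries scaled on spike-ins, to the same total, by the median of ratios or to the same sum of mitochondrially encoded mRNAs. DNAJB1, HSPA1A, BAG3 and HSPA8 stay below 0 under all 4 scales, whereas HSP90AB1, HSPD1, HSPB1 and HSP90AA1 change sign between the spike-in and the same-total or median-of-ratios scale.

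Ratios within a library need no scale. The log2 ratio of HSP90AA1 to HSP90AB1 was −1.94 and −1.89 in untreated NONT and −1.68 and −1.72 with triptolide. NUP93-KO cells went from −1.78 and −1.61 to −1.29 and −1.20, and EXOSC5-KO cells from −1.77 and −1.79 to −1.50 and −1.47. Treated libraries had the higher ratio in every genotype, by 0.22, 0.45 and 0.30, a mean of 0.32 (exact two-sided permutation test within genotypes, p = 0.00926, the smallest these can give; adjusted over 2 ratios, 0.00926). The inducible isoform thus took a larger share of cytosolic HSP90 mRNA after triptolide in 6 of 6 treated libraries against the untreated libraries of the same genotype.

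For the HSP70 genes the inducible share went the other way. The log2 ratio of HSPA1A plus HSPA1B to HSPA8 was −4.76 and −4.51 in untreated NONT and −5.71 and −6.83 with triptolide, −4.64 and −4.48 then −6.01 and −5.23 in NUP93-KO, and −5.01 and −5.15 then −5.42 and −5.26 in EXOSC5-KO. It was lower in the treated libraries of every genotype, with a mean change of −0.99 (exact two-sided permutation test within genotypes, p = 0.00926, adjusted 0.00926). The change was −1.63 (NONT), −1.06 (NUP93-KO) and −0.26 (EXOSC5-KO). The difference between genotypes in this ratio was not tested.

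**Figure D4:**
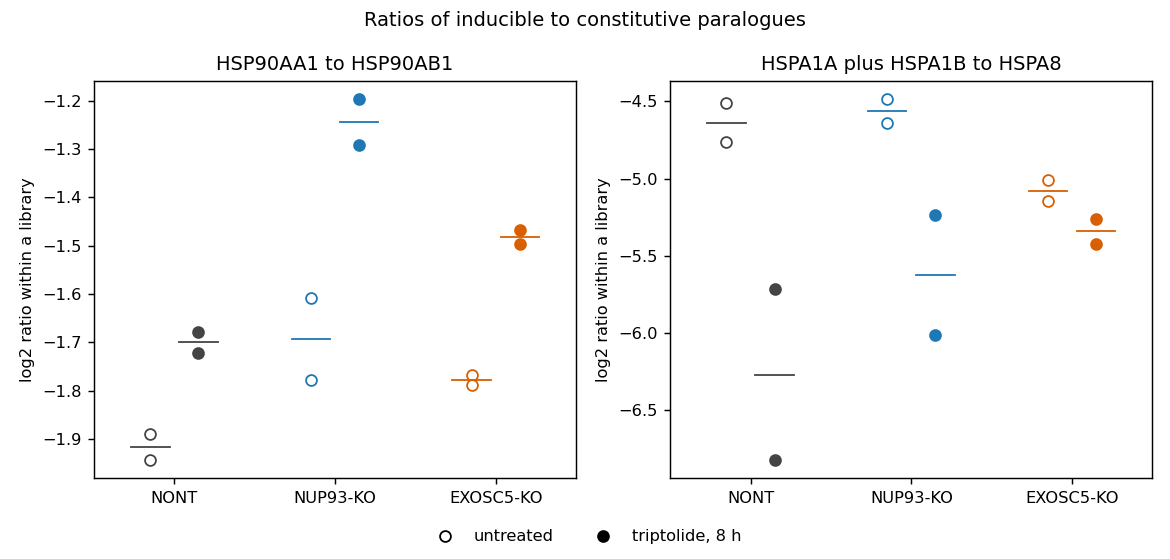
Log2 ratio within each library of HSP90AA1 to HSP90AB1 (left) and of HSPA1A plus HSPA1B to HSPA8 (right), with untreated libraries open, triptolide libraries filled and a bar at the mean of 2. The HSP90 ratio is higher and the HSP70 ratio lower in the treated libraries of each genotype.

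Without drug 1 chaperone gene in 1 knockout passed the test against NONT. In NUP93-KO none did (0 of 10 by limma at an adjusted p under 0.05, beside 0.0217% of all tested genes). At an unadjusted p under 0.05, 1 of 10 passed, HSPA1B, beside 338 of all 13811 tested genes lower and 242 higher. Apart from HSPA1B the log2 differences ran from −0.33 (HSPB1) to 0.13 (HSP90AA1). In EXOSC5-KO only HSPA1B was lower (adjusted p = 0.021, beside 0.0362% of all tested genes), its values being 0 against 81.7 and 49.2, the group through which it passed the filter. That call was lost without either replicate of either group compared (0 of 10 each time) and with HSPA1A and HSPA1B summed, where the log2 difference was −0.53 ± 0.36 (adjusted p = 0.83). The other 9 differed from NONT by −0.47 (HSPA1A) to 0.05 (HSP90AA1).

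Under triptolide more chaperone mRNA was left in the knockouts than in NONT for some of the genes, as for many others. In NUP93-KO 7 of 10 were higher, HSP90AA1, HSP90AB1, HSPA8, HSPH1, HSPD1, BAG3 and HSPA1A, beside 41.9% of all tested genes, with log2 differences from 0.61 ± 0.24 (HSP90AB1) to 1.56 ± 0.37 (HSPA1A) and a median gene at 0.66. Which genes passed depended on single libraries, and the median gene moved with them. The median gene was at 0.53 without NONT triptolide replicate 2, 0.70 without NUP93-KO triptolide replicate 1 and 0.62 without its replicate 2. With 1 library left out, HSPA1A ran from 0.89 to 2.23 and HSP90AB1 from 0.51 to 0.71. In EXOSC5-KO 3 of 10 were higher, beside 39.2% of all tested genes: HSPA1A by 2.18 ± 0.37 (adjusted p = 0.0011), HSPA8 by 1.25 ± 0.21 (0.00094) and DNAJB1 by 0.99 ± 0.28 (0.016), with a median gene at 0.65. Which genes passed depended on single libraries here too. With 1 library left out, the DNAJB1 difference ran from 0.79 to 1.18, and its call did not always hold. The DNAJB1 call was also lost on the same-total (adjusted p = 0.36), median-of-ratios (0.48) and mitochondrial (0.74) scales. DNAJB1 was 0.69 ± 0.28 higher in NUP93-KO (adjusted p = 0.059) and HSP90AA1 1.07 ± 0.23 (0.0057). On the same-total scale 2 were higher and 1, HSPB1, lower in NUP93-KO (HSPB1 −0.40, adjusted p = 0.0029), beside 3.74% of all tested genes higher and 2.4% lower. In EXOSC5-KO 2, HSPA1A and HSPA8, were then higher and 3, HSP90AB1 (−0.25, adjusted p = 0.0063), HSPH1 (−0.32, 0.013) and HSPD1 (−0.28, 0.025), lower, beside 8.91% and 4.24%. By the median of ratios 2 were higher and 1 lower in NUP93-KO (beside 3.47% and 2.77%), and 2 higher and 4 lower in EXOSC5-KO (beside 6.65% and 7.88%), the fourth being HSPB1.

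The difference in response, which asks whether triptolide changed a gene by a different factor in a knockout than in NONT, passed for 1 gene. In EXOSC5-KO HSPA1A fell less than it did in NONT, with a log2 difference of 2.64 ± 0.53 (adjusted p = 0.048, beside 0.319% of all tested genes higher). The summed HSPA1A and HSPA1B row gave 2.70 ± 0.51 (adjusted p = 0.043). It was not refitted on other scales or with a library left out. In this contrast HSPA1B added to the sum in untreated NONT alone, so the sum gives no separate support to the HSPA1A call. This call is marginal, since its adjusted p ran from 0.0018 to 0.36 over the alternatives. It was lost on the same-total (0.16), median-of-ratios (0.17) and mitochondrial (0.19) scales, with a pseudocount of 0.5 or 5, without a filter, without the eBayes trend and with the replicate block (0.053), and it was lost without untreated NONT replicate 2, without NONT triptolide replicate 2, without either untreated NUP93-KO library and without any 1 of the 4 EXOSC5-KO libraries (0 of 10 each time). Which genes passed also changed with single NONT libraries, as did the median gene. Without untreated NONT replicate 1 HSPA1A differed by 3.07 and the median gene by 0.84. Without NONT triptolide replicate 1 these were 3.31 and 0.70. HSPA8 fell less in EXOSC5-KO by 1.34 ± 0.30 on the spike-in scale (adjusted p = 0.069) and by 0.79 ± 0.07 on the same-total scale (adjusted p = 0.0033, beside 0.0652% of all tested genes higher), against a median gene at 0.57 and 0.04. The replicate spread of HSPA8 was narrower on the latter scale, with an SE of 0.07 against 0.30.

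In NUP93-KO no chaperone gene passed for a difference in response (0 of 10 by limma, beside 0.76% of all tested genes higher). At an unadjusted p under 0.05, 7 of 10 passed, beside 5709 of all 13811 tested genes higher and 39 lower. HSPA1A differed by 1.51 ± 0.53 (adjusted p = 0.074), HSPA8 by 1.06 ± 0.30 (0.060), HSP90AA1 by 0.93 ± 0.33 (0.075) and DNAJB1 by 0.69 ± 0.40 (0.19), with a median gene at 0.74. Single libraries moved these: HSPA1A ran from 0.84 without NONT triptolide replicate 2 to 2.18 without replicate 1, DNAJB1 from 0.19 without NUP93-KO triptolide replicate 1 to 1.20 without replicate 2, and HSP90AA1 from 0.60 without untreated NONT replicate 2 to 1.27 without replicate 1. Which genes passed changed with single libraries, and so did the median gene. The median gene was at 1.00 without untreated NONT replicate 1, 0.86 without NONT triptolide replicate 1 and 0.70 without NUP93-KO triptolide replicate 2. Between the knockouts none passed (0 of 10 by limma, beside 0.0217% of all tested genes in either direction). At an unadjusted p under 0.05, 1 of 10 passed, beside 170 of all 13811 tested genes lower and 427 higher. On the same-total scale 1 passed at an adjusted p under 0.05, HSPA8. It fell more in NUP93-KO than in EXOSC5-KO by a log2 difference of −0.50 ± 0.07 (adjusted p = 0.033, beside 0.0579% of all tested genes). That call was lost by the median of ratios (−0.46 ± 0.07, adjusted p = 0.066) and on the mitochondrial scale (−0.48 ± 0.20), so it holds on the same-total scale only. The comparisons of each knockout with NONT share the NONT libraries, so their values are not independent of each other.

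The other genes of the pathway were described from fixed lists, and the counts below are genes that fell after triptolide in NONT, NUP93-KO and EXOSC5-KO on the spike-in scale, where 90.0%, 55.1% and 64.3% of all tested genes fell; none rose. No difference between lists was tested. Of the heat shock factors, 3 of 4 were tested and 3, 1 and 2 fell. HSF2 went from 121 and 184 to 14.0 and 5.19 in NONT cells, a log2 change of −3.96 ± 0.48, beside −3.94 (NUP93-KO) and −3.96 (EXOSC5-KO). HSF1, the master regulator of the response, changed by −1.06 ± 0.20 in NONT, −0.35 ± 0.20 in NUP93-KO (adjusted p = 0.14) and −0.47 ± 0.20 in EXOSC5-KO (0.043), and its repressor HSBP1 by −0.94, −0.07 and −0.14. HSF4 was below the filter, at 3.14 to 8.54.

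Co-chaperone genes of HSP70 covered a wide range of falls. Of 15 further J-domain genes, 15, 12 and 13 fell, with a median of −2.31 in NONT; DNAJC5 (−4.49 ± 0.28) and DNAJB4 (−4.00 ± 0.28) fell most and DNAJB14 (−1.12 ± 0.30) and DNAJC8 (−0.84 ± 0.19) least. Of 6 BAG family and exchange factor genes, 6, 4 and 5 fell, with a median of −3.20; BAG5 (−5.88 ± 0.34) and BAG4 (−4.53 ± 0.30) fell most and HSPBP1 (−1.28 ± 0.24) and BAG6 (−1.13 ± 0.42) least. BAG5 had 407 and 584 in untreated NONT and 7.51 and 7.10 with triptolide. All 5 tested further HSP70 and HSP110 genes of 9 listed fell in each genotype, with HSPA6 (6.65 and 36.9 in untreated and 0 and 0.49 in treated NONT, for which no fold change is given) and HSPA12A (−1.77 ± 0.25) lowest, and HSPA4 (−1.33 ± 0.21) and HSPA13 (−1.28 ± 0.20) highest. Of 4 tested small heat shock protein genes 4, 2 and 3 fell, in the order HSPB8 (−2.34 ± 0.20), HSPB2 (−1.84 ± 0.35), HSPB7 (−1.71 ± 0.42) and CRYAB (−0.93 ± 0.19).

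Genes of HSP90 cofactors and of the chaperonins follow. Of 11 HSP90 co-chaperone genes, 11, 6 and 8 fell, with a median of −1.27 in NONT, from STIP1 (−1.67 ± 0.20) and FKBP5 (−1.52 ± 0.22) to ST13 (−0.91 ± 0.20) and CDC37, the kinase adaptor (−0.78 ± 0.22). The 8 genes of TRiC, the cytosolic chaperonin for actin and tubulin, lay close together: 8, 1 and 8 fell, between CCT6A (−1.12 ± 0.20) and CCT5 (−1.11 ± 0.20) at the low end and CCT8 (−0.93 ± 0.20) and CCT7 (−0.76 ± 0.21) at the high end. Of 7 mitochondrial chaperone genes, 7, 4 and 5 fell, with GRPEL2 (−5.50 ± 0.39) and DNAJA3 (−2.81 ± 0.27) far below HSPE1 (−0.85 ± 0.21), the partner of HSPD1, and TRAP1 (−0.77 ± 0.20). Of 12 endoplasmic reticulum chaperone genes, 12, 3 and 9 fell, led by DNAJB9 (−3.06 ± 0.33) and SDF2L1 (−1.90 ± 0.25), with CANX (−1.03 ± 0.21) and DNAJB11 (−0.99 ± 0.19) last. On the same-total scale 8 TRiC genes were higher in NONT and none lower, whereas 12 of the 15 J-domain genes stayed lower and 1 was higher, and 4 of the 6 BAG and exchange factor genes stayed lower, beside 38.2% of all tested genes lower and 15.2% higher.

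**Figure D5:**
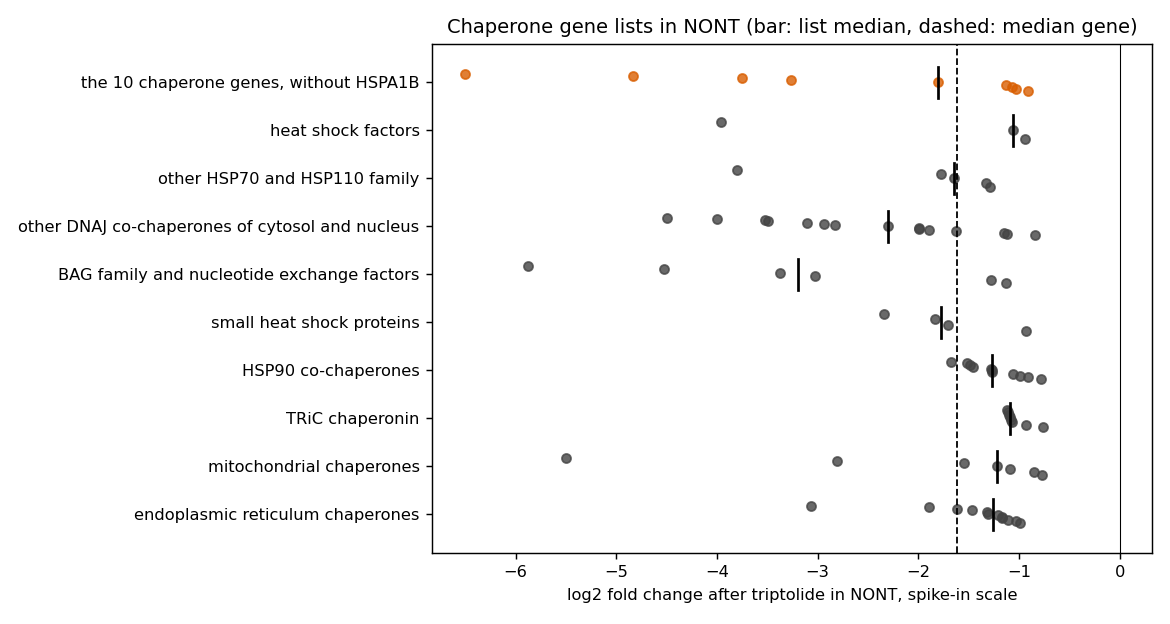
Log2 fold change after triptolide in NONT on the spike-in scale for the heat shock chaperone genes (orange, HSPA1B left out) and the tested genes of 9 lists, 1 point per gene, with a bar at each list's median and a dashed line at the median of all tested genes (−1.62). J-domain and BAG family genes reach far to the left, TRiC genes cluster near −1.09, and the chaperone genes span both ranges.

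The genes with the most similar profile were sought over the 12 libraries, as Pearson r of log2 values scaled to the same total among 10381 genes with an untreated mean of at least 100; the points share treatment, so r mostly follows the response to triptolide and is a description. For DNAJB1 these were MUL1 (0.999), C2orf69 (0.998) and TENT5B (0.998), for HSPA8 EGLN2 (0.996), NUMBL (0.996) and SLC29A3 (0.995), and for HSP90AA1 ST13 (0.980), HMGN5 (0.965) and GTF3C6 (0.963). Among the chaperone genes, BAG3 (0.986) and HSPA8 (0.977) were most like DNAJB1, but ranked only 332nd and 795th among all genes compared. HSPD1 (0.861) and HSP90AB1 (0.713) were most like HSP90AA1, at ranks 205 and 1180. DNAJB1 and HSP90AA1 had an r of −0.80.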

How the data were processed

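Polyadenylated RNA of 12 U2OS libraries was used, grouped by the sample labels. Per the labels and the study's methods, the authors pseudoaligned strand-specific reads to Ensembl GRCh38 cDNA with kallisto 0.46.1, summed them per gene and divided by DESeq2 size factors estimated on ERCC spike-ins, so the deposited values are a normalised signal, not counts. Of the 22471 rows, 92 were ERCC transcripts; 19584 of 22379 genes matched GENCODE release 44. Between 41.1% and 48.6% of low values were whole multiples of 1 read (tolerance 0.1), so no count test was run.

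Values were analysed as log2(value + 1), which understates changes of low genes. Genes with an untreated mean of at least 10 (13811) were fitted with 6 group means in limma 3.58.1 (R 4.3.3, eBayes with trend), two-sided, with Benjamini-Hochberg adjustment over all of them and a threshold of 0.05; the fit was tested on simulated data. Ratios, promoters and 31-base words used Python 3.11.15, SciPy 1.17.1 and matplotlib 3.10.9. Genes named from each list were those past the threshold with the 2 largest and 2 smallest falls in NONT, with all heat shock factors and, by profile, the 3 genes most like each of 3 members. The members and lists were chosen with earlier results of these data known. Alternatives were other scales (same total, median of ratios, sum of 13 mitochondrially encoded mRNAs), pseudocounts, filters, eBayes without trend, a replicate block and leaving out each library; summing HSPA1A and HSPA1B and leaving out HSPA1B were added after seeing the data.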

Additional observations from a re-analysis of the deposited data

Results flagged for a closer look

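HSPA1A passed the test of a difference in response between 2 genotypes, marginally: the test of the difference in response between EXOSC5-KO and NONT gave 2.64 ± 0.53 (SE) on the log2 scale (limma, adjusted p = 0.048). The call was lost on the same-total (0.16), median-of-ratios (0.17) and mitochondrial (0.19) scales, with other pseudocounts, with the replicate block (0.053) and without any 1 of 8 libraries. Its log2 fold change was −4.83 in NONT and −2.19 in EXOSC5-KO, with treated values of 93.9 and 36.7 against 253 and 287. The 2 treated NONT libraries themselves differed more than those of EXOSC5-KO. HSPA1A shares 76.0% of its 31-base words with HSPA1B, and the part of read splitting in this difference was not tested. The row summing both genes gave 2.70 ± 0.51, but HSPA1B added to it in untreated NONT alone, so it is no separate check.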

How the results depend on the processing

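The falls in NONT of the 9 genes other than HSPA1B held under each other pseudocount, filter and eBayes setting, the replicate block and the mitochondrial scale. With each library left out their changes stayed negative. HSPA1B was removed by an untreated mean of at least 50, and its calls against untreated NONT support nothing. With libraries scaled to the same total 6 of the 10 genes fell, and by the median of ratios 5 fell, HSPA1B among them each time. On each 4 rose, beside 38.2% and 30.5% of all tested genes lower, and 15.2% and 26.8% higher. In each knockout 3 and then 4 rose. On those 2 scales, in that order, HSP90AA1 changed by 0.43 and 0.73 in NONT and 0.37 and 0.64 in EXOSC5-KO, HSP90AB1 by 0.21 and 0.51 (NONT), 0.14 and 0.46 (NUP93-KO) and 0.070 and 0.35 (EXOSC5-KO), HSPB1 by 0.31 and 0.62, 0.13 and 0.46, and 0.40 and 0.67, and HSPD1 by 0.27 and 0.58, 0.30 and 0.63, and 0.20 and 0.48. HSP90AA1 in NUP93-KO was 0.59 and 0.91 on those scales, −0.29 on the mitochondrial scale and −0.20 to 0.24 with a library left out. On the same-total and median-of-ratios scales the difference in response was −0.065 and −0.044 for DNAJB1 in NUP93-KO and −0.060 and −0.085 for HSP90AA1 in EXOSC5-KO, and the difference from NONT under triptolide was −0.047 and −0.070 for HSP90AB1 in NUP93-KO and −0.034 and −0.13 for HSP90AA1 in EXOSC5-KO, where it was −0.30 on the mitochondrial scale.

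On the mitochondrial scale 8 genes fell in NUP93-KO. Without drug, 1 gene, HSPA1B, was called in NUP93-KO with a pseudocount of 5. In untreated EXOSC5-KO, 2 genes, HSPA1B and HSPB1, were called by the median of ratios and on the mitochondrial scale. There were 0 with a pseudocount of 0.5, with an untreated mean of at least 50, which removes HSPA1B, or with HSPA1A and HSPA1B summed. Under triptolide, the 7 genes higher in NUP93-KO became 2 by the same total, 2 by the median of ratios and 0 on the mitochondrial scale, and the 3 in EXOSC5-KO became 1 on the mitochondrial scale. For the difference in response, NUP93-KO had 1 call with a pseudocount of 5, HSPA1B, whose calls against untreated NONT support nothing. NUP93-KO had 1 call with an untreated mean of at least 50, HSPA8. EXOSC5-KO had 2 with that mean and 0 on the mitochondrial scale, with a pseudocount of 0.5 or 5, without a filter, without the eBayes trend and with the replicate block. The 1 call in EXOSC5-KO on the same-total and median-of-ratios scales was HSPA8 (adjusted p = 0.0033 and 0.0045), not HSPA1A (0.16 and 0.17). The inducible minus constitutive median was −1.65 (NONT), −1.49 (NUP93-KO) and −1.10 (EXOSC5-KO) with HSPA1A and HSPA1B summed or HSPA1B left out. The causes of these shifts were not tested.

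With 1 library left out, falls numbered 10 to 10 in NONT, 5 to 7 in NUP93-KO and 5 to 9 in EXOSC5-KO; calls without drug 0 to 0 and 0 to 1; calls under triptolide 0 to 7 and 2 to 7; and calls for a difference in response 0 to 9 (NUP93-KO), 0 to 10 (EXOSC5-KO) and 0 to 0 (between knockouts). The inducible minus constitutive median with HSPA1B included ran from −2.71 to −2.53 (NONT), −1.60 to −0.55 (NUP93-KO) and −0.77 to −0.70 (EXOSC5-KO). The medians without HSPA1B, given above, lay outside the NONT and EXOSC5-KO ranges. Their own ranges with a library left out were not computed, so these ranges do not show that the median was stable. The ratio of HSP90AA1 to HSP90AB1 changed by 0.29 to 0.35 and that of HSPA1A plus HSPA1B to HSPA8 by −1.17 to −0.80.

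Same-numbered libraries shared no gene-specific deviation: 15 correlations over genes of the replicate differences lay between −0.051 and 0.037. A shift common to all genes of a library would not show in these correlations. Whether same-numbered libraries were made together was not tested. With the replicate block, 10, 5 and 7 genes fell, 6 and 3 were higher than NONT under triptolide, and the difference in response of HSPA1A in EXOSC5-KO had an adjusted p of 0.053 (2.64 ± 0.53). Over 6 same-number pairs the mean change of each ratio is the same by construction, so the pairs are no further check. The exact sign-flip permutation test gave p = 0.031, the smallest 64 arrangements can give.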
